A study of Homo sapiens with 8 samples.

Results

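The response of the human lung cancer cell line H1975 to the degrader ACBI1 was described across all genes. It was taken from every library that the labels give for H1975, 4 of the 8 in the series: 2 from cells that received the solvent DMSO and 2 from cells that received ACBI1. The other 4 libraries come from HCC44, another human lung cancer line, under the same pair of treatments. H1975 is labelled as lung cancer of wild-type genotype. Both H1975 groups were grown in RPMI medium with fetal bovine serum, and the treatment is described as lasting 96 hours at 1 mM ACBI1. That concentration is printed in the labels' unit and lies far above what is usual for such compounds. The unit may therefore be in error. The data concern a single line at a single dose and time. Whether replicates came from separate cultures is not stated, so p-values measure only the spread between these libraries, which may be technical.

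ACBI1 is a bifunctional molecule. One end fits bromodomains found in SMARCA2, SMARCA4 and PBRM1, and the other brings these proteins to the VHL ubiquitin ligase, which marks them for degradation. SMARCA2 and SMARCA4 are the alternative ATPase motors of the SWI/SNF complexes, which slide and evict nucleosomes and so keep enhancers and promoters accessible, and PBRM1 is a subunit of one form of the complex. H1975 was derived from a lung adenocarcinoma and carries activating mutations in EGFR. The series concerns SMARCA4 loss, tumour immunity and STING, an adaptor that turns cytosolic DNA into interferon production.

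Total counts assigned to genes were 62467286 to 68399084 per H1975 library, and 27701 to 29223 genes had a count. Libraries of a group correlated at 0.993 and 0.994 (Pearson r of log2 CPM over 21307 genes), and libraries of different groups at 0.97 to 0.976. No pair of replicates was a copy: the chi-square of their counts, divided by its degrees of freedom, was 43.5 for DMSO and 25.6 for ACBI1. The share of reads that fell in no gene was 6.50 and 4.50% with DMSO and 6.16 and 4.98% with ACBI1. Of 6 epithelial markers, all were expressed, with a summed level of 5393 and 5137 CPM with DMSO and 2808 and 2331 CPM with ACBI1. The keratin KRT7 held most of that sum, at 3124 and 2985 CPM with DMSO and 1604 and 1296 CPM with ACBI1. The 4 keratins among these markers fell, while EPCAM and CDH1 were not called. Of 4 markers of the lung adenocarcinoma lineage, the transcription factor NKX2-1 was at 27.5 and 24.3 CPM with DMSO and 25.8 and 19.2 CPM with ACBI1. NAPSA was low and fell, from 1.96 and 1.91 to 1.12 and 0.891 CPM. SFTPB and SFTPC were under 1 CPM in every library and were not tested. Of 10 blood cell markers, 8 were under 1 CPM in every library, and CD3E, CD3D, CD2 and MS4A1 had no count in any. CSF1R and CD14 were the exceptions, at 15.9 and 14.5 to 14.6 and 10.1 CPM and at 2.56 and 2.01 to 1.26 and 1.2 CPM. All 6 endothelial markers were under 1 CPM, as were 4 of 7 fibroblast markers. The fibroblast list summed to 72.1 and 48.9 CPM with DMSO and 30.5 and 25.6 CPM with ACBI1, nearly all of it COL1A1, and DCN had no count.

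Levels are counts scaled to a common library size (CPM) with TMM factors. A log2 fold change is ACBI1 minus DMSO, given ± SE. A gene is said to have risen or fallen where edgeR's quasi-likelihood test gave a Benjamini-Hochberg adjusted p under 0.05, and no call is made otherwise. At least 20% of the exonic bases are shared with another annotated gene for 15 of the 150 genes described, among them FTH1, CTSD, ITGB3, XAF1, PSMB10 and IFITM1, so their counts are less certain. The same holds for near-identical copies among the IFITM, keratin and histone genes. Of 21307 genes tested 31.3% were called: 14.6% rose and 16.7% fell, and these shares are the background for every count of list members below. Over all tested genes the median log2 fold change was -0.01, with an interquartile range of -0.37 to 0.39. Where no member of a list is said to have risen or fallen, 0 also passed at an unadjusted p under 0.05 with edgeR and 0 with DESeq2, unless other counts are given. Directions are relative to this scale. With library totals in place of TMM factors the median gene shifted to 0.18, and 5427 genes rose while 2080 fell.

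These are bulk samples, in which fewer cells that express a gene and less RNA per cell cannot be told apart. Most called changes were moderate, with a median of 1.9-fold for genes that rose and 1.63-fold for those that fell. A change of at least 1 on the log2 scale was called for 1428 genes that rose and 1224 that fell. Of at least 3, it was called for 94 that rose and 161 that fell. Protein-coding genes fell more often than they rose (20.9% against 15.2% of 14583, median -0.05). Fewer fell than rose among antisense RNAs (8.38% fell and 16.3% rose of 1969, median 0.22) and long intergenic RNAs (8.96% fell and 15.4% rose of 1641, median 0.17). In both classes the share that rose was close to that of coding genes, and the difference lay in the share that fell. These shares were taken with TMM factors only. The median level, not adjusted for length, was 0.516 CPM for antisense and 0.441 CPM for intergenic RNAs, against 25.7 CPM for coding genes. Antisense reads cannot be told from those of the partner gene because the strand setting is not known.

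**Figure D1:**
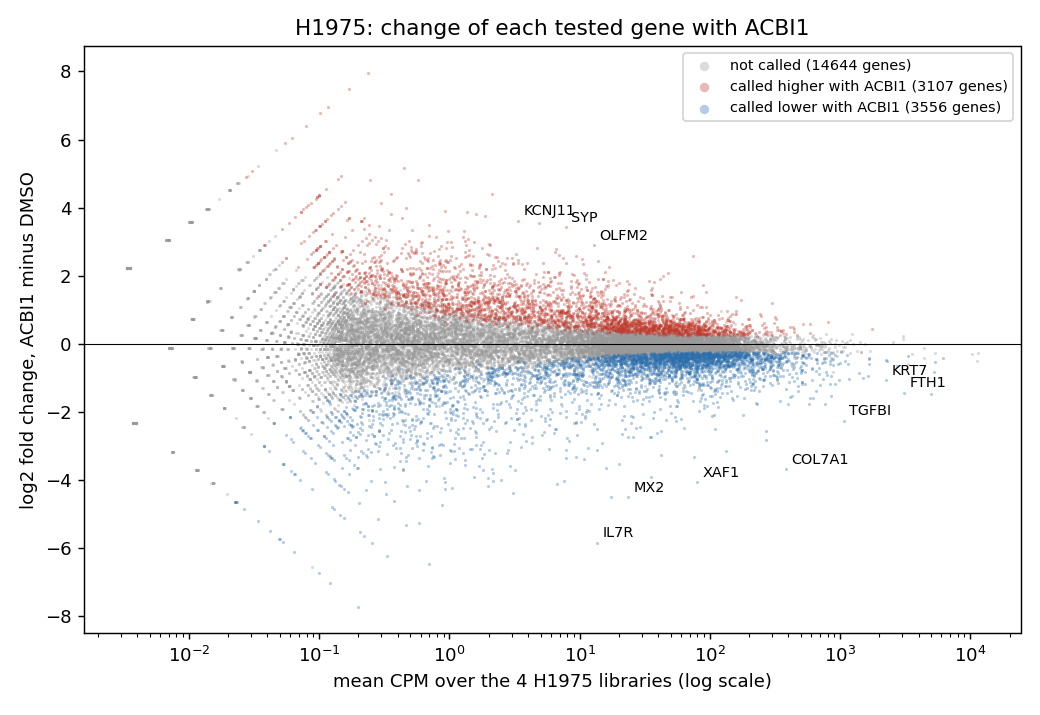
Log2 fold change of every tested gene in H1975 (vertical axis, ACBI1 minus DMSO) against its mean level over the 4 libraries (horizontal axis, CPM, log scale). Each point is 1 gene, coloured by whether it was called higher (3107), called lower (3556) or not called. Changes are wider at low levels, and the labelled genes FTH1, KRT7, TGFBI and COL7A1 lie below 0 at the right.

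Genes were ranked by fold change among those called that reached 5 CPM on average in either group and whose groups did not overlap. Before the level and the call are applied, 33.1% of tested genes lay wholly higher with ACBI1 and 34.2% wholly lower. IL7R, the receptor chain for interleukin 7, was at 27.4 and 26.2 CPM with DMSO and 0.678 and 0.24 CPM with ACBI1. MX2, an interferon-induced GTPase that blocks viruses, was at 39.9 and 50.8 CPM with DMSO and 2.22 and 1.74 CPM with ACBI1. SHISAL1 fell from 6.03 and 5.68 to 0.306 and 0.255 CPM. RRAD, a small GTPase that restrains calcium channels and glucose uptake, fell from 52.1 and 101 to 3.1 and 5.03 CPM. UCN2, a stress peptide of the corticotropin-releasing family, fell from 14.5 and 10.7 to 0.838 and 0.594 CPM. XAF1, an interferon-inducible antagonist of the apoptosis inhibitor XIAP, fell from 147 and 153 to 10 and 7.96 CPM. INHBE, an activin subunit, fell from 9.04 and 19.3 to 0.718 and 1.03 CPM. KLHDC7B fell from 54.4 and 76.8 to 3.58 and 5.1 CPM, and CMKLR2, a receptor for the attractant chemerin, from 4.97 and 6.92 to 0.532 and 0.382 CPM. In each of these genes the higher ACBI1 library was far below the lower DMSO library.

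KCNJ11, the pore of the ATP-sensitive potassium channel, was at 0.559 and 0.459 CPM with DMSO and 6.46 and 6.07 CPM with ACBI1. SYP, the synaptic vesicle protein synaptophysin, was at 1.79 and 0.873 CPM with DMSO and 12.3 and 16.3 CPM with ACBI1, while the other 5 neuroendocrine markers stayed under 1 CPM in every library. OLFM2, a secreted olfactomedin, rose from 3.23 and 2.88 to 21.7 and 23.7 CPM (log2 fold change 2.89 ± 0.16, adjusted p = 3.14e-06). The antisense RNA PIK3CD-AS2 rose from 0.792 and 0.74 to 7.59 and 10.3 CPM and the divergent transcript SLC20A1-DT from 2.07 and 1.27 to 11.5 and 11.6 CPM. ANGPTL6, a secreted angiopoietin-like factor, rose from 0.932 and 1.41 to 6.88 and 9.6 CPM. PLPPR3, a neuronal membrane protein, rose from 0.777 and 1.02 to 5.36 and 5.75 CPM, and FAM131C from 1.74 and 1.69 to 10.5 and 11.8 CPM. ECH1, a peroxisomal and mitochondrial enzyme of fatty acid oxidation, rose from 1.46 and 2.38 to 9.71 and 14 CPM. RFLNB, a filamin-binding protein, was at 17.5 and 24.8 CPM with DMSO and 118 and 136 CPM with ACBI1. For each of these genes both ACBI1 libraries lay above both DMSO libraries, which the ranking required.

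**Figure D2:**
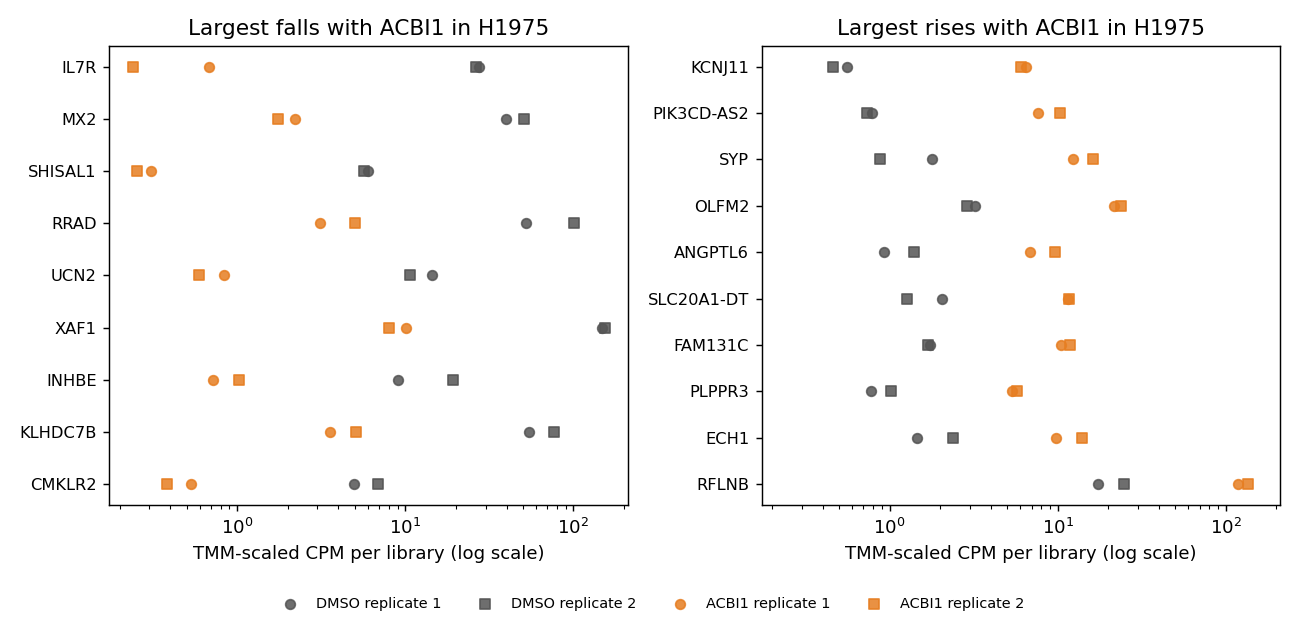
Level in each H1975 library (horizontal axis, TMM-scaled CPM, log scale) of the genes with the largest falls (left) and the largest rises (right). Grey marks are DMSO and orange marks ACBI1, with circles for replicate 1 and squares for replicate 2. The groups do not overlap for any gene shown, which the ranking required.

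The transcripts of ACBI1's own targets do not check the treatment, since the compound acts on proteins. SMARCA4 was at 354 and 359 CPM with DMSO and 378 and 406 CPM with ACBI1, a log2 fold change of 0.14 ± 0.09 that was not called (adjusted p = 0.295) except with library totals (0.34). PBRM1 was at 76.1 and 88.9 CPM with DMSO and 74.8 and 89.5 CPM with ACBI1 (adjusted p = 0.976), and its sign depended on the scaling and on the library left out. SMARCA2 fell from 60.5 and 70.7 to 40.3 and 41.1 CPM (-0.69 ± 0.12, adjusted p = 0.00188). Of 28 tested SWI/SNF subunits 5 rose and 6 fell, with a median of -0.03 whose sign depended on the scaling. Among the latter was SMARCD1, an accessory subunit, from 87.9 and 88.5 to 64 and 60.8 CPM. With ACBI1 replicate 2 left out 1 rose and 3 fell, without DMSO replicate 1 it was 2 and 4, and without ACBI1 replicate 1 or DMSO replicate 2 it was 3 and 3 or 3 and 6. VHL, the ligase subunit that ACBI1 engages, was at 101 and 101 to 86.7 and 89.4 CPM and was not called (adjusted p = 0.197).

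Polycomb complexes place repressive marks on nucleosomes and are known for acting against SWI/SNF. Of 28 tested Polycomb genes 8 rose and 4 fell, with a median of -0.02 whose sign depended on the scaling. CBX6 and CBX7, alternative readers of the repressive mark in PRC1, rose from 348 and 379.9 to 515 and 506 CPM and from 10.8 and 11.5 to 18.4 and 21 CPM. PHF19, an accessory subunit of PRC2, rose from 57.8 and 56 to 83.9 and 83 CPM. JARID2, another PRC2 partner, fell from 49.1 and 56.9 to 28.8 and 37.7 CPM, and PHC2 of PRC1 fell from 115 and 121 to 80 and 79.8 CPM. The count that rose was 4 when DMSO replicate 1 was left out and 3 when ACBI1 replicate 2 was, and the count that fell was 2 without DMSO replicate 2. HOX genes, the classical targets of Polycomb repression, had a median of 0.38 over 33 tested, with 7 that rose and 1 that fell. Their level was low, with a median over members of 0.305 CPM with DMSO and 0.363 CPM with ACBI1, so these changes rest on few counts. The HOX count that rose was 3 without DMSO replicate 1 or ACBI1 replicate 2 and 2 without DMSO replicate 2, and the median was 0.60 and 0.14 without DMSO replicate 1 and 2.

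Cells detect foreign or misplaced nucleic acid with dedicated sensors. Cytosolic DNA activates the enzyme cGAS, whose product switches on STING, and double-stranded RNA is bound by the RIG-I-like receptors and the OAS enzymes. Both arms induce interferons, which act through STAT and IRF factors on a large set of antiviral genes. The DNA arm moved in parts. IFI16, a nuclear and cytosolic DNA sensor, fell from 341 and 374 to 110.4 and 97.4 CPM (-1.78 ± 0.10, adjusted p = 2.81e-06). STING1 fell from 43.5 and 39.4 to 17.5 and 14.1 CPM. CGAS was at 29 and 29.2 CPM with DMSO and 33.3 and 32.9 CPM with ACBI1 and was not called, except as a rise with upper-quartile factors and library totals. ZDHHC1, a palmitoyltransferase reported to help STING, rose from 21 and 20.7 to 32.7 and 34.7 CPM. Of 14 tested DNA sensing genes 6 fell and 1 rose, and 3 or 4 fell without ACBI1 replicate 2 or DMSO replicate 2.

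The RNA arm fell more broadly. Of 18 tested RNA sensing genes 15 fell and 1 rose, with a median of -0.81. The 3 catalytic OAS enzymes, which make the second messenger for RNase L, fell together. OAS2 was at 77.8 and 75.7 CPM with DMSO and 10.1 and 5.97 CPM with ACBI1 (-3.25 ± 0.25, adjusted p = 4.27e-05). OAS1 fell from 47.5 and 43.9 to 10.3 and 6.01 CPM and OAS3 from 296 and 295 to 145 and 119 CPM. ADAR, which edits double-stranded RNA, fell from 757 and 841 to 528 and 546 CPM. With a library left out, 11 to 13 fell, and without DMSO replicate 1 or ACBI1 replicate 2 none rose.

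Of 21 tested genes for interferons, their receptors and signalling, 11 fell and none rose, with a median of -0.36. STAT2 fell from 160.0 and 119 to 50.6 and 39.5 CPM. IRF1, a factor that acts on many antiviral and antigen presentation genes, fell from 39.1 and 44.5 to 22.5 and 22.1 CPM. The count that fell was 6, 7, 5 and 4 without DMSO replicates 1 and 2 and ACBI1 replicates 1 and 2.

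Interferon-stimulated genes, the effector end of this pathway, fell almost throughout. Of 53 tested, 47 fell and 1 rose, and the median was -1.41. With any library left out, 45 or 46 fell, and of these 4 fits only that without ACBI1 replicate 2 kept a rise. SAMD9L, a restriction factor for poxviruses, was at 21.7 and 17.6 CPM with DMSO and 2.34 and 1.41 CPM with ACBI1 (-3.39 ± 0.22, adjusted p = 7.31e-06). IFI44L was at 138 and 138 CPM with DMSO and 15.9 and 11.6 CPM with ACBI1 (-3.33 ± 0.16, adjusted p = 2.54e-06). IFITM3, which blocks entry of enveloped viruses, fell from 507 and 594 to 229.5 and 276 CPM. Both DMSO libraries were above both ACBI1 libraries for each of these, which the choice of SAMD9L and IFI44L required. Over all tested genes 34.2% lay wholly lower with ACBI1.

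**Figure D3:**
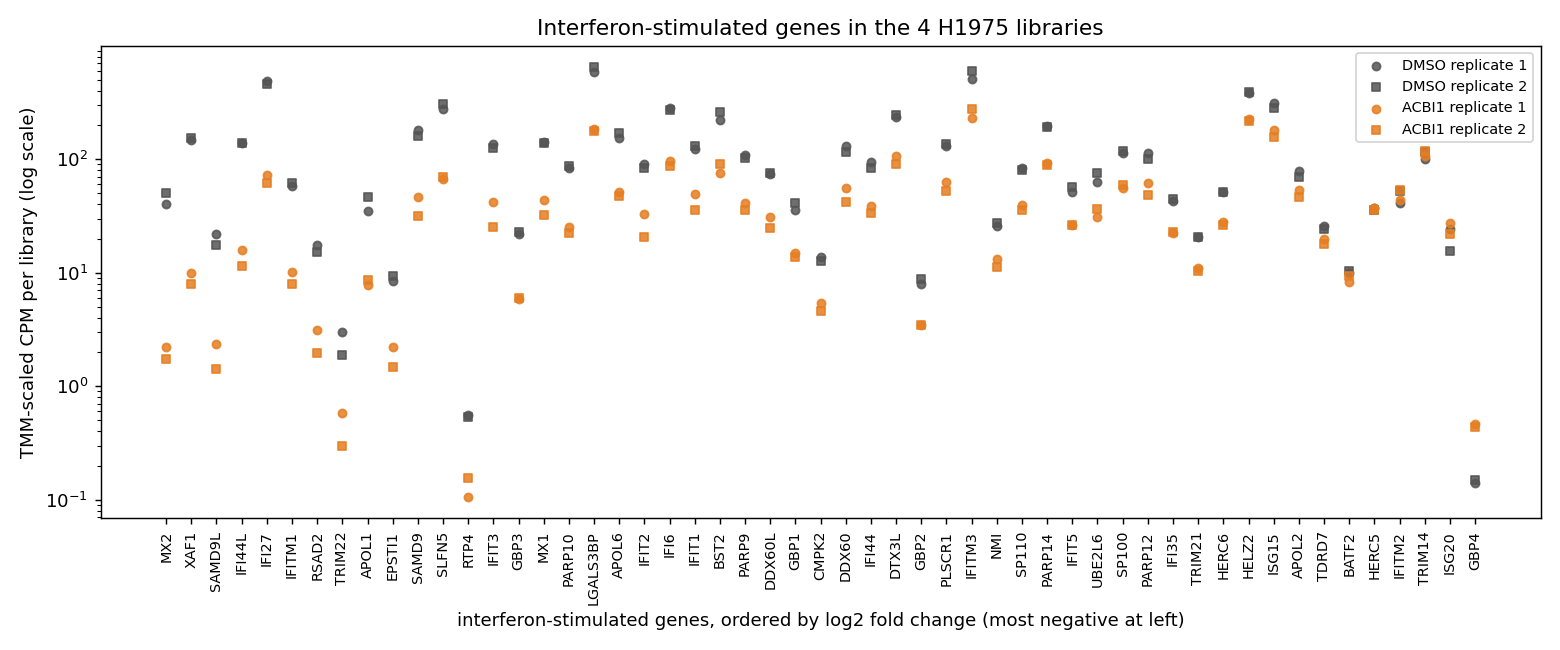
Level of each tested interferon-stimulated gene (horizontal axis, ordered by log2 fold change) in the 4 H1975 libraries (vertical axis, TMM-scaled CPM, log scale). Grey marks are DMSO and orange marks ACBI1. From MX2 at the left, ACBI1 marks lie below DMSO marks over most of the axis, and 47 of the 53 were called lower.

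A complex of STAT and IRF factors binds the interferon-stimulated response element (ISRE), searched here as a pair of GAAA blocks with any 2 bases between them, on both strands. Promoters are shown for the 4 list members with the largest called falls among those whose promoter was at hand and held a match, because they show how the element sits in genes that moved together. They run from 250 bases before the annotated start to 20 after it, 5′ to 3′ on the gene's strand, from RefSeq on GRCh38.p14, and matches are in capitals.
IFI44L: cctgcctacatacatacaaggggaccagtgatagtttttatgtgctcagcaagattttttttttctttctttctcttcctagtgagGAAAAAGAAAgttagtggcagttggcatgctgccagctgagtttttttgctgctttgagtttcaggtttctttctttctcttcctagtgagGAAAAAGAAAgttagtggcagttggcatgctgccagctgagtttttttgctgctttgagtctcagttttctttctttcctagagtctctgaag
IFI27: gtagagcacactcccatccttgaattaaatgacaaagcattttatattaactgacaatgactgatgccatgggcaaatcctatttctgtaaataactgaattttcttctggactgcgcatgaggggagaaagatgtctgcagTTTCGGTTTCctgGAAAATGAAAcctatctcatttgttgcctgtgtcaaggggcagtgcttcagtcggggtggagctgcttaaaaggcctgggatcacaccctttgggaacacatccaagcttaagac
IFITM1: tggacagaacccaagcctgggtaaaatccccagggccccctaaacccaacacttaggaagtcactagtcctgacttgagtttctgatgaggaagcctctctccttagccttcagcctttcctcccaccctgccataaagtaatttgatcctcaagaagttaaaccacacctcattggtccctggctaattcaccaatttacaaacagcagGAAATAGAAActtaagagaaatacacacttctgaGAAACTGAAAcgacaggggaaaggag
EPSTI1: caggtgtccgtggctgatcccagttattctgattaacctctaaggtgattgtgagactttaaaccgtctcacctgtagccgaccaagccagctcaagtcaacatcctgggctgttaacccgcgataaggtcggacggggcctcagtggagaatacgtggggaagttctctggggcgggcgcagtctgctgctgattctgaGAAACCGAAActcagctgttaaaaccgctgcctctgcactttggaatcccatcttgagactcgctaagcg
IFI44L lies at chr1:78620198-78620467 on the plus strand, with matches that begin 164 and 73 bases before the start. IFI27 lies at chr14:94110486-94110755 on the plus strand, with matches at 108 and 95 bases, the first of them on the opposite strand. IFITM1 lies at chr11:313790-314059 on the plus strand, with matches at 40 and 6 bases. EPSTI1 lies at chr13:42992222-42992491 on the minus strand, with 1 match at 50 bases. IFI27, a small membrane protein, fell from 490.3 and 455 to 73.2 and 61.4 CPM. IFITM1, a relative of IFITM3 at the cell surface, fell from 58 and 62 to 10.2 and 7.93 CPM, and EPSTI1 from 8.48 and 9.39 to 2.21 and 1.48 CPM. XAF1 and SAMD9L, which fell further than all 4, held no match within 250 bases before to 50 after the start. RSAD2, an interferon-induced antiviral enzyme named here after its values were seen, fell further than EPSTI1, from 17.5 and 15.3 to 3.14 and 1.97 CPM, and held none either. MX2 had no entry in the table.

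Matches were counted over the table's whole window, from 250 bases before to 50 after the start. A match was held by 30 of the 43 interferon-stimulated genes with a promoter (69.8%, with 43 of 53 matched) and by 3.65% of 27305 promoters in the table. Within that list a match did not mark the members that fell. The member that rose and most of those not called also held a match, and several that fell did not. Among 11730 tested protein-coding genes with a promoter (83.2% of 14103, without chromosome 8), the share was 4.87% for genes that fell, 2.49% for genes not called and 1.98% for genes that rose. The AP-1 site, searched as TGANTCA, which reads the same on both strands, was held by 7.22% of genes that fell, 4.33% of those not called and 3.68% of those that rose, against 7.76% of all promoters in the table. Restricted to genes that reached 5 CPM in either group, the AP-1 shares were 6.22, 3.59 and 2.93%. In promoters with at most 10 CpG dinucleotides, a split chosen after the shares had been seen, the AP-1 site was in 18.6% of 500 genes that fell, 10.2% of 1167 not called and 10.2% of 225 that rose. The TEAD site ACATTCC was held by 2.56, 2.11 and 2.27% of genes that fell, were not called and rose. For the CRE, TGACGTCA, the shares were 3.04, 3.19 and 2.60%, and for the GAS element, TTCNNNGAA, 6.57, 6.75 and 5.21%. Matches are letters in a window and do not show binding.

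MHC class I presentation, by which cells display peptides to T cells, also fell as a group. All 21 tested members had a log2 fold change below 0, 17 fell and the median was -0.54. B2M, the invariant light chain, was at 621 and 619.9 CPM with DMSO and 309.5 and 309.8 CPM with ACBI1. PSME1, a proteasome activator subunit, fell from 126 and 128 to 52.7 and 56.1 CPM, and PSMB10, an immunoproteasome catalytic subunit, from 7.53 and 7.34 to 3.01 and 2.12 CPM. ERAP2, which trims peptides in the endoplasmic reticulum, fell from 55 and 60.1 to 22.6 and 23.7 CPM. Without ACBI1 replicate 1, 11 of the 21 fell. Of 11 tested MHC class II genes 3 fell and 1 rose. CIITA, the master activator of that class, fell from 12.7 and 12.8 to 5.48 and 4.78 CPM, whereas RFX5, a factor that binds its promoters, rose from 61.9 and 59.7 to 104 and 102 CPM.

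Ligands through which tumour cells address T cells and natural killer cells moved both ways. Of 20 tested, 10 fell and 4 rose, with a median of -0.40. VSIR, the checkpoint protein VISTA, rose from 13.6 and 18.9 to 32.8 and 50.7 CPM. NCR3LG1, a ligand of the activating receptor NKp30, rose from 23.9 and 24.8 to 38.3 and 37.4 CPM. The NKG2D ligands split: ULBP1 rose from 17.2 and 23.1 to 33.2 and 40 CPM and ULBP2 fell from 10.2 and 9.84 to 5.73 and 5.06 CPM. TNFRSF14, a partner of BTLA, fell from 14 and 10.8 to 4.64 and 4.44 CPM, and CD276, an inhibitory B7 protein, from 97.7 and 79 to 50.8 and 47.4 CPM. The count that fell was 6 when DMSO replicate 1 was left out and 5 when ACBI1 replicate 2 was.

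IL11, an interleukin 6 family cytokine, was at 214 and 264 CPM with DMSO and 25.3 and 28.2 CPM with ACBI1 (-3.16 ± 0.18, adjusted p = 7.58e-06). IL24 fell from 37.1 and 36.3 to 3.82 and 2.47 CPM. The chemokine CXCL16 went the other way, from 7.53 and 7.85 to 24.4 and 22.4 CPM. Of 34 tested interleukins, growth factors and chemokines 15 fell and 6 rose, and the median of -0.99 was -0.57 when DMSO replicate 1 was left out and -0.34 when ACBI1 replicate 2 was. The count that rose was 3 without DMSO replicate 2 or ACBI1 replicate 1. Of 27 tested cytokine receptors 13 fell and 3 rose. IL1RL1, the receptor for interleukin 33, fell from 17.9 and 10.4 to 2.58 and 0.636 CPM. The count of receptors that fell was 6, 7 and 8 without DMSO replicate 2, ACBI1 replicate 1 and ACBI1 replicate 2, and 1 rose without ACBI1 replicate 1.

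Among NF-kB subunits and feedback genes 8 of 21 fell and 3 rose, and the median of 0.00 changed sign with the scaling. RELB, the partner of the noncanonical pathway, rose from 42.3 and 47.1 to 72.7 and 76.1 CPM. BIRC3, an ubiquitin ligase that restrains that pathway, rose from 4.58 and 3.62 to 14.2 and 11.6 CPM. The count that fell was 3 when DMSO replicate 1 was left out and 2 when ACBI1 replicate 2 was. Of 32 tested complement and acute-phase genes 17 fell and 2 rose, with a median of -0.93, and 1 rose without DMSO replicate 2 or either ACBI1 library. C5, a component of the lytic complement pathway, rose from 16.6 and 18.1 to 54.5 and 75.7 CPM. AGT, the precursor of angiotensin, fell from 4.69 and 5.65 to 0.665 and 0.735 CPM.

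EGFR, mutated in this line, was at 357 and 385 CPM with DMSO and 274 and 302 CPM with ACBI1, which was not called (adjusted p = 0.159) except without the filter, with the replicate block and with H1975 alone. Its ligand AREG fell from 52 and 42.6 to 25.6 and 17.9 CPM. Of 15 tested ERBB receptors and ligands 7 fell and none rose, and 4 fell without DMSO replicate 1 or ACBI1 replicate 2. KLF4 and IER3, early response genes, fell from 94.3 and 104 to 37.8 and 35.8 CPM and from 366 and 348 to 141 and 162 CPM. BATF3, an AP-1 partner, rose from 3.57 and 3 to 6.3 and 6.24 CPM. Of 20 tested AP-1 and early response factors 3 fell and 2 rose, a called share of 25% against 31.3% of all tested genes. That low share depended on the fit, since 7 of the 20 fell with H1975 alone and 7 with the replicate block. SPRY1, a feedback inhibitor of receptor tyrosine kinases, rose from 5.65 and 5.24 to 14.8 and 12.7 CPM. Of 21 tested MAPK feedback genes 8 fell and 2 rose, while 5 fell without DMSO replicate 2 or ACBI1 replicate 1 and 1 rose without DMSO replicate 1 or ACBI1 replicate 2. Of 38 TGF-beta and BMP genes 13 fell and 1 rose, with 7 and 8 that fell without ACBI1 replicate 1 and 2, and 2 that rose without DMSO replicate 2. TGFBI, an extracellular protein induced by TGF-beta, was at 1802 and 1723 CPM with DMSO and 389 and 349 CPM with ACBI1 (-2.26 ± 0.29, adjusted p = 0.00143).

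YAP and TEAD target genes were mixed, with 10 of 28 that fell and 4 that rose. F3, the coagulation tissue factor, fell from 136 and 123 to 46 and 44.6 CPM, while the factor TEAD4 itself rose from 21.8 and 23.4 to 36 and 37.4 CPM. Of the Notch and Wnt list, 12 of 45 rose and 9 fell, with a median of 0.25. NKD1, a Wnt feedback inhibitor, rose from 1.23 and 1.17 to 5.99 and 6.12 CPM, HES6 of the Notch pathway from 10.8 and 10.3 to 25.1 and 27.1 CPM, and the ligand WNT7B fell from 51.2 and 43.5 to 20.7 and 17.2 CPM. With DMSO replicate 1 left out, 6 of that list rose and 8 fell with a median of 0.11, and with ACBI1 replicate 2 left out, 7 rose and 6 fell with a median of 0.14.

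Genes of the extracellular matrix fell in several families. COL7A1, the anchoring fibril collagen, was at 884 and 536 CPM with DMSO and 65.9 and 44.6 CPM with ACBI1 (-3.68 ± 0.31, adjusted p = 0.000235). COL5A1 fell from 454 and 474 to 68.8 and 89.6 CPM. Of 33 tested collagens 12 fell and 1 rose, with a median of -0.69, and 8 fell without ACBI1 replicate 1. Of the 4 fits with a library left out, only that without ACBI1 replicate 2 called a rise. Laminins and other basement membrane genes fell in 9 of 15 cases with none that rose, 1 at an unadjusted p under 0.05 and 0 by DESeq2, and 5 fell without ACBI1 replicate 1. LAMB1 fell from 26.7 and 21.7 to 3.06 and 2.47 CPM, LAMB3 from 1187 and 1115 to 533 and 485 CPM and the proteoglycan AGRN from 875 and 1009 to 348 and 372 CPM. Among mesenchymal genes 13 of 25 fell and 1 rose, with a median of -0.95. TNC, a matrix protein of wounds and tumours, fell from 864 and 927 to 245 and 277 CPM, SPARC from 172 and 193 to 48.4 and 52.1 CPM and the intermediate filament VIM from 1224 and 1415 to 609 and 654 CPM.

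Matrix proteases and their inhibitors fell in 16 of 45 cases and rose in 5, or in 3 without DMSO replicate 2. MMP9, a gelatinase, fell from 17.5 and 23.5 to 2.59 and 2.35 CPM, and MMP14, a collagenase at the cell surface, from 372 and 485 to 208 and 262 CPM. ADAM11 rose from 2.78 and 2.75 to 9.14 and 8.78 CPM. Integrins, the receptors for these matrix proteins, fell in 9 of 21 cases and rose in 3. ITGB3 and ITGB6 fell from 32.9 and 35.7 to 8.87 and 10.4 CPM and from 18.3 and 12 to 4.28 and 3.07 CPM, and ITGB2, the beta chain best known from leukocytes, rose from 44.4 and 52.9 to 83.5 and 98.6 CPM. All 9 tested clade B serpins, intracellular protease inhibitors, had log2 fold changes below 0, with a median of -1.65, and 7 fell (4 without DMSO replicate 1). SERPINB8 fell from 16.3 and 18.4 to 6.14 and 4.93 CPM.

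Keratins fell in 10 of 15 tested cases and rose in 2, with a median of -1.07. KRT7 and KRT18, keratins of simple epithelia, fell from 3124 and 2985 to 1604 and 1296 CPM and from 671 and 664 to 304 and 262 CPM. KRT81, normally a hair keratin, fell from 38.9 and 44.3 to 9.9 and 8.68 CPM, and KRT17, a keratin of basal and stressed epithelium, from 11.4 and 13.6 to 3.78 and 2.56 CPM. KRT15, of basal progenitors, rose from 9.1 and 6.21 to 31.9 and 24.6 CPM. Over the epithelial list 9 of 32 fell and 2 rose, and 5 fell without DMSO replicate 1 or ACBI1 replicate 2. The tight junction proteins CLDN3 and OCLN rose from 12 and 11.5 to 27.6 and 30.5 CPM and from 22 and 19 to 45.3 and 31.5 CPM, while the protease inhibitor SPINT1 fell from 177 and 134 to 85.3 and 56.8 CPM. S100 calcium-binding proteins fell in 9 of 12 cases, none rose and the median was -1.08. S100A14 was at 18.5 and 15.3 CPM with DMSO and 1.9 and 1.44 CPM with ACBI1, S100A2 fell from 50.1 and 30.5 to 11.1 and 7.61 CPM, and S100A6 from 1032 and 817 to 332 and 280.2 CPM.

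Lung and foregut transcription factors fell in 10 of 29 cases and rose in 4. SOX4 fell from 142 and 146 to 87 and 80.1 CPM, NR2F2 from 80.3 and 92.2 to 47.5 and 47.4 CPM, and TP63, the factor of basal cells, from 17.6 and 11.7 to 7.82 and 5.22 CPM. The count that fell was 6 without DMSO replicate 1 or ACBI1 replicate 1 and 4 without DMSO replicate 2, and 2 rose without DMSO replicate 1 or ACBI1 replicate 2. ABCA3, the lipid transporter of surfactant, rose from 140.4 and 159 to 235 and 264 CPM, but of 19 tested surfactant, mucin and secretory genes 2 rose and 3 fell. Cadherins and protocadherins fell in 14 of 72 cases and rose in 5, and CDH15, a cadherin of muscle, rose from 0.854 and 0.932 to 4.91 and 5.32 CPM. The count that fell was 8 when DMSO replicate 1 was left out and 7 when ACBI1 replicate 2 was, and 3 rose without any library other than DMSO replicate 1. DLL3, a Notch ligand of neuroendocrine tumours, rose from 4.26 and 4.04 to 9.48 and 11 CPM. Of the 25 tested neural and synaptic genes, to which it belongs, 5 rose and 4 fell, with a median of 0.06.

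**Figure D4:**
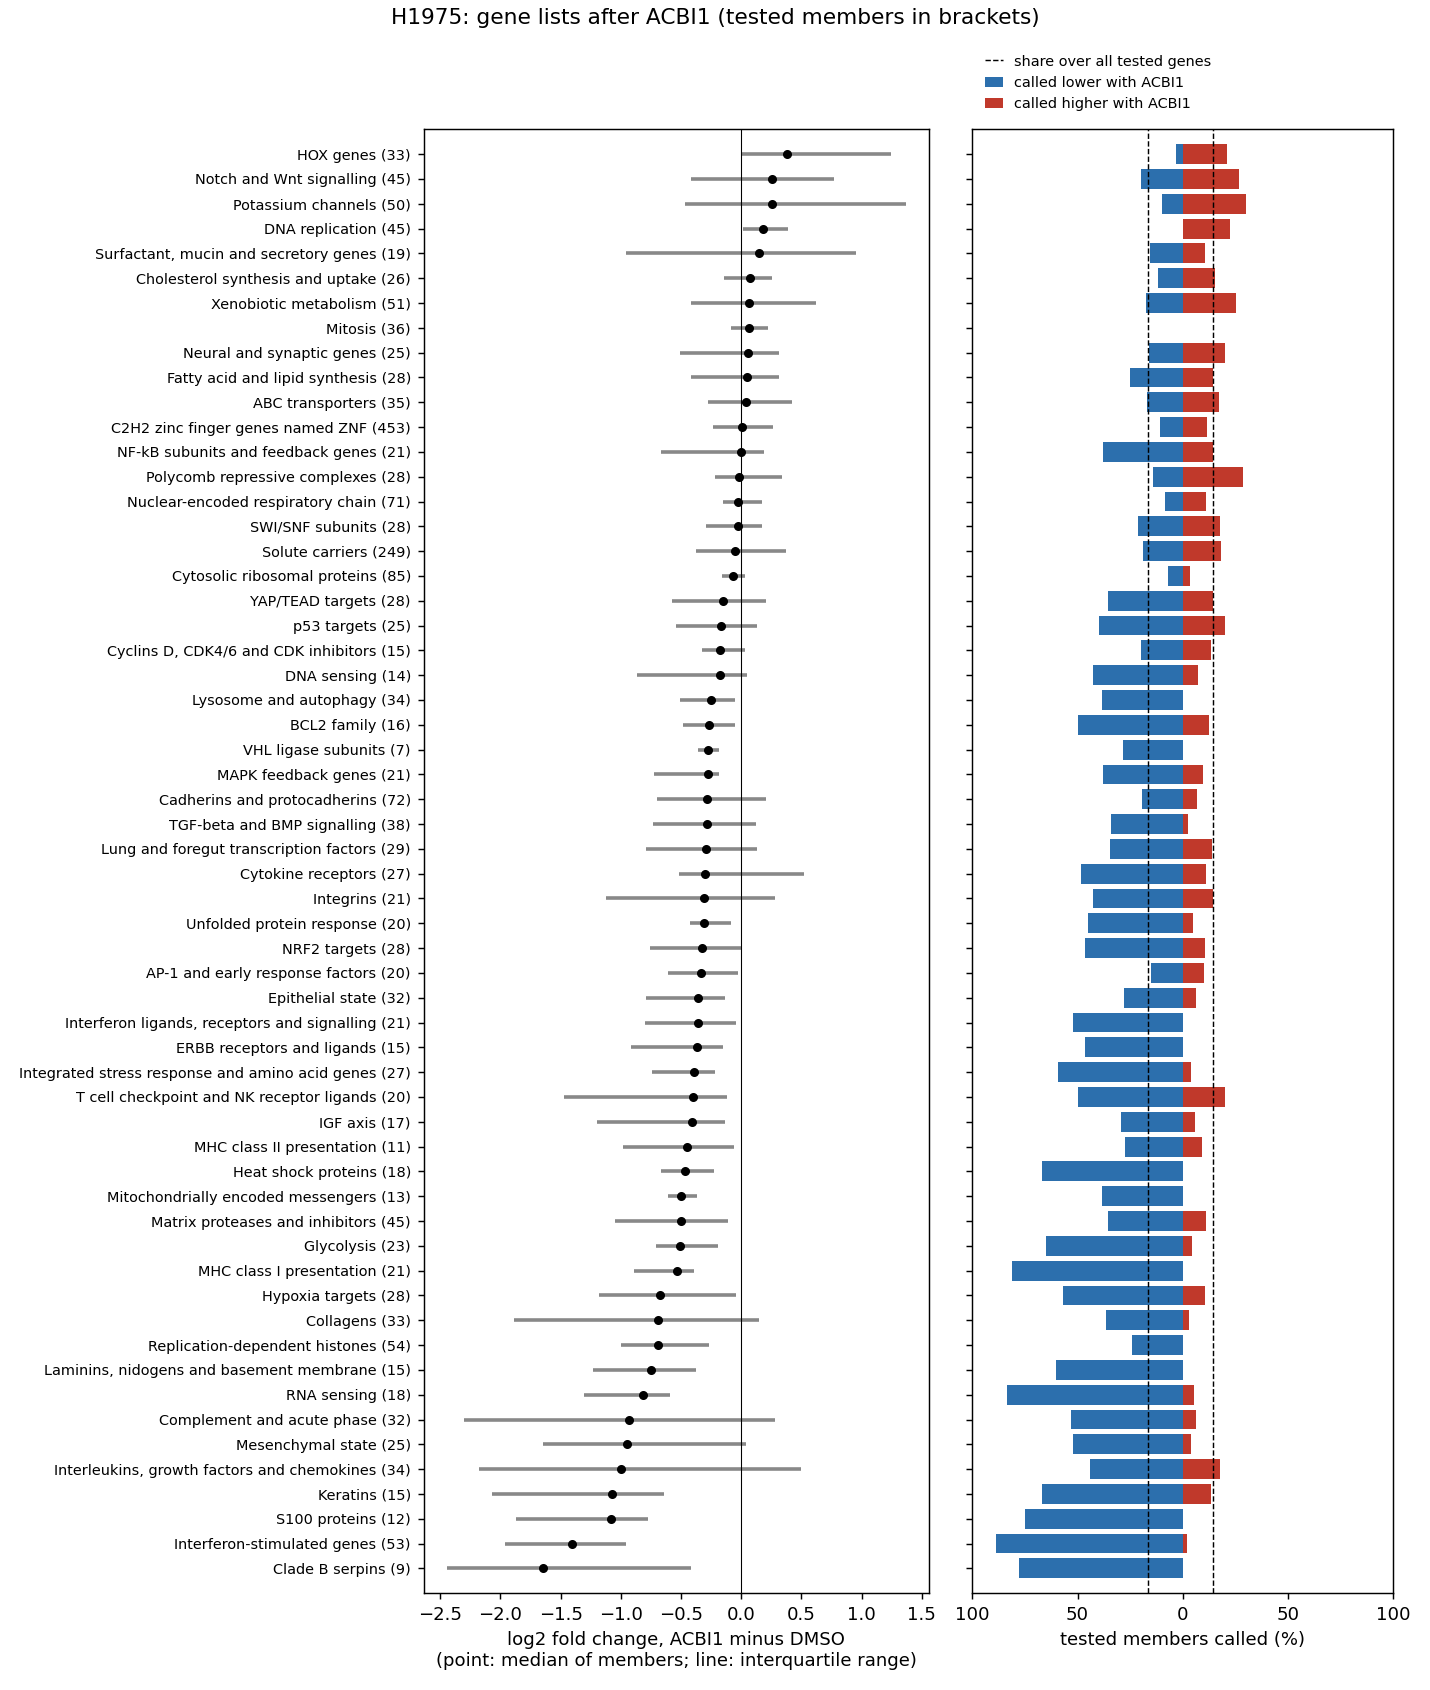
Median log2 fold change in H1975 with interquartile range for each of 58 gene lists (left), and the share of tested members called lower or higher (right, percent). Brackets give the members tested and dashed lines the shares over all tested genes, 16.7% lower and 14.6% higher. Clade B serpins, interferon-stimulated genes, S100 proteins and keratins lie at the low end, and HOX genes at the high end.

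None of 36 tested mitosis genes was called in either direction by edgeR without a replicate block, and the median was 0.06. With the replicate number as a block 10 were called, of which 6 rose and 4 fell. With DMSO replicates 1 and 2 and ACBI1 replicates 1 and 2 left out in turn it was 0.16, 0.01, -0.11 and 0.26. At an unadjusted p under 0.05, 1 passed, and DESeq2 called 1. DNA replication genes rose in 10 of 45 cases, none fell and the median was 0.18. E2F1, a driver of S phase entry, rose from 59.8 and 55.5 to 100.2 and 94.5 CPM. The replication count was 5 without DMSO replicate 1, and the median was 0.29 without ACBI1 replicate 2. CDKN1A, the inhibitor p21, fell from 164 and 148 to 69.1 and 49.7 CPM (-1.40 ± 0.18, adjusted p = 0.000659). Of 25 tested p53 targets 10 fell and 5 rose (6 fell without DMSO replicate 2 or ACBI1 replicate 1, and 2 or 3 rose with any library left out), and ZMAT3 rose from 22.5 and 27.2 to 42.1 and 52 CPM. Replication-dependent histone genes fell in 13 of 54 cases with none that rose and a median of -0.69. Their median level over members was 0.811 CPM with DMSO and 0.497 CPM with ACBI1, so the list median rests largely on few counts. H2AC6 fell from 51.9 and 50.7 to 17.3 and 17.3 CPM, H2BC12 from 72.8 and 67.6 to 38.9 and 39.5 CPM and H3C10 from 6.68 and 6.12 to 2.59 and 2.59 CPM. The histone count was 7 without DMSO replicate 1 or ACBI1 replicate 2.

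The BCL2 family, which sets the threshold for mitochondrial apoptosis, moved both ways. MCL1, which guards against it, fell from 664 and 607 to 385 and 349.7 CPM, while BCL2, another guardian, rose from 2.56 and 2.8 to 5.39 and 5.78 CPM. BMF, a trigger of the BH3-only class, fell from 19.8 and 23.1 to 3.88 and 4.6 CPM, and BID, another, rose from 14.2 and 15.6 to 26.7 and 30.8 CPM. In all 8 of 16 fell and 2 rose, and 5 fell with any library left out.

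Hypoxia targets fell in 16 of 28 cases and rose in 3, with a median of -0.68. VEGFA, the vascular growth factor, was at 521 and 531 CPM with DMSO and 150.3 and 179 CPM with ACBI1 (-1.68 ± 0.10, adjusted p = 4.48e-06). ARNT2, a partner of the hypoxia factors, fell from 3.88 and 6.29 to 0.732 and 0.438 CPM. ANGPTL4 and PFKFB3 rose from 45.1 and 30.7 to 77.4 and 81.4 CPM and from 60.5 and 57.7 to 80.9 and 80.3 CPM. Glycolysis genes fell in 15 of 23 cases and rose in 1, with 9 that fell without ACBI1 replicate 2 and none that rose without either ACBI1 library. PKM, pyruvate kinase, fell from 1620.1 and 1544 to 826 and 726 CPM, ENO1 from 1967 and 2036 to 1403 and 1268 CPM and the lactate exporter SLC16A3 from 161 and 178 to 65.4 and 71.5 CPM. Nuclear-encoded respiratory chain genes rose in 8 of 71 cases and fell in 6, and in 3 and 1 without ACBI1 replicate 2. With library totals as the scaling 28 of the 71 rose, 1 fell and 25.5% of all tested genes rose. The 13 messages encoded in mitochondria had a median of -0.50 with 5 that fell. That count was 1 without DMSO replicate 1 or ACBI1 replicate 2 and 12 without DMSO replicate 2, and the median was -0.16 when DMSO replicate 1 was left out and -0.30 when ACBI1 replicate 2 was.

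Lipid genes did not move as a block. In cholesterol synthesis and uptake 4 of 26 rose and 3 fell. The cholesterol exporter ABCA1 fell from 65.5 and 63.6 to 20.4 and 26.8 CPM, and the sterol carrier STARD4 rose from 13.5 and 14.3 to 20.1 and 24.5 CPM. Among fatty acid and lipid genes 4 of 28 rose and 7 fell. CPT1A, the gate to mitochondrial fatty acid oxidation, rose from 56.4 and 56.2 to 111 and 126 CPM, and DGAT2, which makes triglycerides, from 13 and 17.7 to 32 and 38.6 CPM. ACSL5, an acyl-CoA synthetase, was at 25.5 and 33.4 CPM with DMSO and 2.05 and 2.66 CPM with ACBI1 (-3.65 ± 0.18, adjusted p = 2.54e-06), and the desaturase FADS3 fell from 67.9 and 63.2 to 24.9 and 24.5 CPM.

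Integrated stress response and amino acid genes fell in 16 of 27 cases and rose in 1. NUPR1, a stress-induced regulator, fell from 8.23 and 10.1 to 1.61 and 1.44 CPM, and WARS1, the tryptophanyl-tRNA synthetase that interferon also induces, from 885 and 886 to 320.2 and 272 CPM. Without DMSO replicate 2, ACBI1 replicate 1 and ACBI1 replicate 2 the count was 8, 8 and 10. In the unfolded protein response 9 of 20 fell and 1 rose: XBP1 fell from 232 and 273 to 116 and 123 CPM and SDF2L1, a chaperone cofactor, rose from 52 and 50 to 75.3 and 72.7 CPM. That count was 5, 3 and 5 with the same libraries left out. Heat shock proteins fell in 12 of 18 cases (6, 6 and 7), among them HSPB8 from 34.6 and 29.7 to 16.7 and 13.8 CPM.

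Targets of the antioxidant factor NRF2 fell in 13 of 28 cases and rose in 3, with 8 that fell without ACBI1 replicate 1 and 1 that rose without DMSO replicate 2. FTH1, the ferritin heavy chain, was at 4054 and 5041 CPM with DMSO and 1467 and 1883 CPM with ACBI1 (-1.44 ± 0.15, adjusted p = 0.000105), and PIR, an iron-binding protein, rose from 5.65 and 5.86 to 15 and 19.2 CPM. Lysosome and autophagy genes fell in 13 of 34 cases and none rose, with 8 that fell without DMSO replicate 2 or ACBI1 replicate 2. In the other direction 3 passed at an unadjusted p under 0.05 and 1 by DESeq2, and 2 rose without DMSO replicate 2. GPNMB, a lysosomal glycoprotein, fell from 57.7 and 65.3 to 9.98 and 8.46 CPM, and the protease CTSD from 279 and 314 to 127 and 136 CPM. In the insulin-like growth factor axis 5 of 17 fell and 1 rose, and the binding protein IGFBP7 fell from 18.1 and 19.5 to 5.43 and 4.2 CPM.

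Potassium channels rose in 15 of 50 tested cases and fell in 5, and the median of 0.25 was 0.11 without ACBI1 replicate 2. Solute carriers rose in 45 and fell in 47 of 249. SLC27A2, which activates very long fatty acids, rose from 1.13 and 0.902 to 5.32 and 5.03 CPM, and SLC25A45, a mitochondrial carrier, from 5.13 and 3.74 to 18.3 and 17.7 CPM. SLC16A4 fell from 9.32 and 9.41 to 3.35 and 3.53 CPM. The solute carrier count that fell was 30 when DMSO replicate 1 was left out and 24 when ACBI1 replicate 2 was. ABCC9, the regulatory partner of potassium channels such as KCNJ11, fell from 10.8 and 8.64 to 2.35 and 1.36 CPM. Genes of xenobiotic metabolism rose in 13 and fell in 9 of 51. ALDH1A3, which makes retinoic acid, rose from 17 and 17.4 to 41.8 and 45.7 CPM, CYP1A1 from 2.52 and 2.62 to 5.52 and 6.25 CPM, and AKR1B1 fell from 420.3 and 462 to 210.5 and 215 CPM. Cytosolic ribosomal protein genes rose in 3 and fell in 6 of 85, and zinc finger genes named ZNF rose in 53 and fell in 49 of 453. With library totals 13 ribosomal and 119 zinc finger genes rose. Leaving out a library gave 23 to 37 zinc finger genes that rose and 20 to 28 that fell, and 2 or 3 ribosomal genes that fell without ACBI1 replicate 1 or 2.

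The H1975 response was set beside that of HCC44 through the difference of the log2 fold changes, HCC44 minus H1975, tested in the same fit. Over all tested genes this difference was called for 18.6%, more positive in HCC44 for 10.2% and more negative for 8.4%. Of 53 interferon-stimulated genes 35 were more positive in HCC44, where the median was -0.59 against -1.41 in H1975, and 1 was more negative. With an H1975 library left out, 25 to 30 were more positive, and the single more negative one was lost without DMSO replicate 1 or ACBI1 replicate 2. For OAS2 the log2 fold change was -3.25 in H1975 and 0.02 in HCC44, a difference of 3.28 ± 0.38 (adjusted p = 0.000754). For IFI44L the difference was 2.64 ± 0.21 (adjusted p = 7.09e-05), and for RNA sensing genes 7 of 18 were more positive and 1 more negative, the latter called only with all libraries or without DMSO replicate 2. MHC class I medians were -0.54 and -0.55, with a called difference for 4 of 21 more positive and 2 more negative in HCC44, or 2 and 0 at the least with a library left out. The B2M difference was 0.13 ± 0.15 (adjusted p = 0.606), so it was not called.

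The mitosis median was 1.68 in HCC44, where 34 of 36 rose, and the difference was called for 19, or for 4 to 7 with an H1975 library left out. For DNA replication, 30 of 45 were more positive in HCC44 (16 to 23 with an H1975 library left out). Of NRF2 targets 15 of 28 were more positive in HCC44 and 1 more negative, and FTH1 rose there (0.78), a difference of 2.22 ± 0.21 (adjusted p = 0.000155). ERBB receptors and ligands were more positive in 7 of 15 cases, AREG among them (1.99 ± 0.22, adjusted p = 0.000361). The keratin KRT81 moved in opposite directions (-2.16 in H1975 and 1.45 in HCC44, adjusted p of the difference = 5.15e-06), as did KRT7 (-1.07 and 1.09, adjusted p = 0.000757). Genes that rose in H1975 and fell in HCC44 included CXCL16 (1.60 in H1975 and -0.94 in HCC44, adjusted p of the difference = 0.000123), ITGB2 (0.90 and -1.48, adjusted p = 2.56e-05) and BID (0.95 and -0.72, adjusted p = 9.95e-05).

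**Figure D5:**
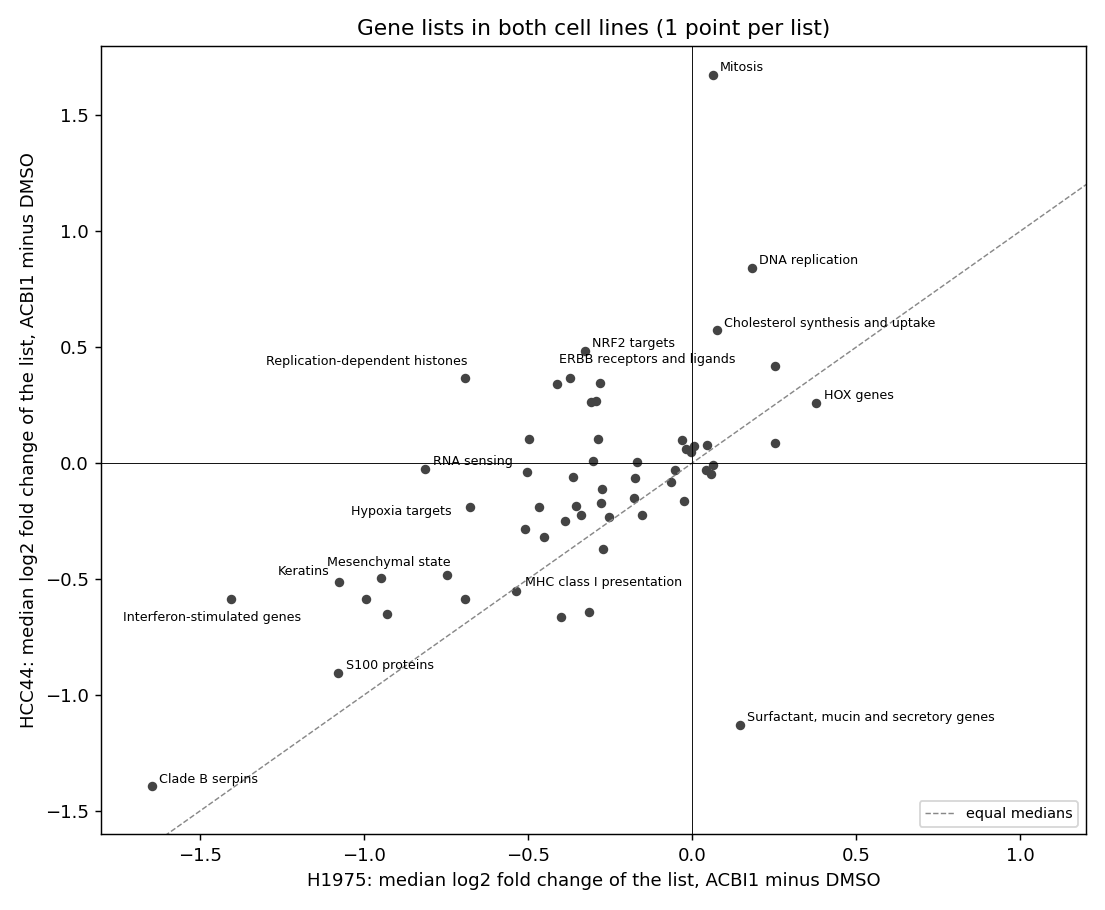
Median log2 fold change (ACBI1 minus DMSO) of each of the 58 gene lists in H1975 (horizontal axis) and HCC44 (vertical axis). The dashed line marks equal medians. Mitosis (0.06 in H1975, 1.68 in HCC44) and DNA replication (0.18 and 0.84) lie far above it, and interferon-stimulated genes (-1.41 and -0.59) lie above it on the low side.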

How the data were processed

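RNA sequencing read counts per gene were used for 4 H1975 libraries and, for the shared spread and the comparison of lines, 4 HCC44 libraries. The counts were made by the authors: per the submitters' processing notes, these name TopHat2 2.1.1, HTSeq 0.11.0 and build hg38. The annotation release and strand setting are not given in the sources used here. Each deposited table listed 61228 genes. The summary rows, 14.3 to 15.8% of counts, were left out. Assigned totals of 62467286 to 68399084 counts limit the precision of genes with few counts.

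Counts were fitted with edgeR 4.0.16 in R 4.3.3, using TMM factors, filterByExpr and 1 mean per group over all 8 libraries (4 residual degrees of freedom). The quasi-likelihood F test was two-sided, and Benjamini-Hochberg adjustment ran over 21307 genes at a threshold of 0.05. SE is the log2 fold change divided by the square root of F. CPM values carry the TMM factors. The fit was tested on 3 sets of simulated counts with changes put into the H1975 ACBI1 libraries. It recovered 48.8% of 201 1.5-fold, 89.1% of 201 2-fold and 98.5% of 198 4-fold changes over the 3 sets. Of its calls 5.98% were false, slightly above the threshold of 0.05. Changes went only into genes with an average log2 CPM above 1, among 20825 to 20854 tested per set. Counts were drawn with dispersions from the fitted trend. Recovery at lower levels was not tested. Nor was the false share where as many genes change as the 31.3% called in the data. A gene not called may therefore still have changed, above all by less than 2-fold. Lists were described by counts and medians, with no test.

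Members and lists were chosen with earlier results of these data known. Named genes were the treatment's targets and STING1, CGAS, EGFR and VHL; the largest called changes overall; and for each list up to 2 rises and 2 falls (4 for innate lists) plus its member with the highest CPM. Changes qualified where either group averaged 5 CPM or more and the groups did not overlap. Not every gene that the rule gives is described, and some are not reported here. Promoters came from RefSeq on GRCh38.p14.

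Alternatives were RLE and upper-quartile factors, library totals, no filter, 1 CPM in 2 libraries, DESeq2 1.42.0, a replicate block, H1975 alone, each H1975 library left out, an adjusted p under 0.01 and promoters of genes with at least 5 CPM. The split by CpG number was chosen after seeing the data.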

Additional observations from a re-analysis of the deposited data

Results flagged for a closer look

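The response differed between the lines, by the test of the difference itself, for 84 of the 150 genes described in H1975. The log2 fold change was more positive in HCC44 for 58 and more negative for 26. Over all tested genes the difference was called for 18.6%, more positive for 10.2% and more negative for 8.4%. Of the genes described, 145 had been called in H1975, and those H1975 values enter the difference, so the count and its split describe these genes only. All differences below are HCC44 minus H1975 on the log2 scale, and each had an adjusted p under 0.05 with edgeR. No minimum level in HCC44 was set for the genes described. Among interferon and nucleic acid sensing genes, the response was more positive in HCC44 for OAS2 by 3.28, OAS1 by 3.27, IFI44L by 2.64, SAMD9L by 2.59, OAS3 by 2.37, MX2 by 2.0, IFI27 by 1.79, XAF1 by 1.51, IFITM3 by 1.33, IFITM1 by 1.15, STAT2 by 0.88, STING1 by 0.72, ADAR by 0.69 and IRF1 by 0.66. For CGAS by -0.55 the response was more negative in HCC44. Among antigen presentation, checkpoint and killer cell ligand genes, the response was more positive in HCC44 for ULBP1 by 0.76 and CD276 by 0.66. A more negative response in HCC44 was called for VSIR by -1.87, ULBP2 by -0.91, NCR3LG1 by -0.84 and CIITA by -0.81.

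Among secreted factors, receptors and their signalling, the response was more positive in HCC44 for UCN2 by 2.77, INHBE by 2.29, AREG by 1.99, TGFBI by 1.59, BIRC3 by 1.16, VEGFA by 1.02 and IER3 by 0.87. For AGT by -2.85, CXCL16 by -2.55, IL11 by -2.09 and WNT7B by -0.77 the response was more negative in HCC44. Among matrix and adhesion genes, the response was more positive in HCC44 for ITGB6 by 3.13, LAMB1 by 2.90, COL5A1 by 2.04, COL7A1 by 1.95, SERPINB8 by 1.61, MMP9 by 1.52, VIM by 1.50 and SPARC by 0.82. A more negative response in HCC44 was called for CDH15 by -3.15 and ITGB2 by -2.38. In HCC44, ITGB6 was at 0.0636 and 0.047 CPM with DMSO and 0.128 and 0.11 CPM with ACBI1. The ITGB6 difference therefore sets a fall in H1975 against few counts in HCC44. Among keratin, epithelial and lineage genes, the response was more positive in HCC44 for KRT81 by 3.62, TP63 by 2.90, KRT7 by 2.16, S100A6 by 1.87, S100A2 by 1.49, KRT18 by 1.40, SOX4 by 1.36 and NR2F2 by 1.29. For SPINT1 by -1.47 and KRT15 by -1.38 the response was more negative in HCC44.

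Among chromatin, cell cycle and apoptosis genes, the response was more positive in HCC44 for H3C10 by 1.84, H2AC6 by 1.44, BMF by 1.38, SMARCA2 by 0.74, PHC2 by 0.73, E2F1 by 0.71 and H2BC12 by 0.69. A more negative response in HCC44 was called for BID by -1.66 and ZMAT3 by -0.92. Among metabolic, stress and lysosomal genes, the response was more positive in HCC44 for ARNT2 by 2.93, GPNMB by 2.66, FTH1 by 2.22, PIR by 1.45, ACSL5 by 1.43, PKM by 1.05 and CTSD by 0.68. For ECH1 by -2.58, ALDH1A3 by -2.04, SDF2L1 by -1.18, DGAT2 by -1.16, FADS3 by -0.91, PFKFB3 by -0.69 and CPT1A by -0.60 the response was more negative in HCC44. Among transporters and the remaining genes, the response was more positive in HCC44 for RRAD by 3.38, KLHDC7B by 2.94, SHISAL1 by 2.93, ABCC9 by 2.73 and OLFM2 by 1.16. A more negative response in HCC44 was called for SLC27A2 by -2.37, SLC25A45 by -1.92, FAM131C by -1.51 and RFLNB by -1.23. Levels in HCC44 were low for GPNMB (0.699 and 0.893 CPM with DMSO, 0.912 and 0.598 CPM with ACBI1). The same held for ABCC9 (0.731 and 0.752 CPM with DMSO, 0.944 and 0.944 CPM with ACBI1).

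With an H1975 library left out, 65 of these differences were called each time and 19 were not. Without DMSO replicate 1 the call was lost for CD276, CIITA, E2F1, H2BC12, IFI27, S100A2, STAT2, STING1, TGFBI and ZMAT3. Without DMSO replicate 2 the call was lost for BMF, CTSD, IFI27, IRF1, MMP9, SMARCA2, STING1, TGFBI, ULBP1 and WNT7B. Without ACBI1 replicate 1 the call was lost for BMF, CIITA, CTSD, H2BC12, IER3, INHBE, MMP9, TGFBI, ULBP1 and WNT7B. Without ACBI1 replicate 2 the call was lost for CD276, E2F1, H2BC12, IFI27, INHBE, IRF1, MMP9, S100A2, STAT2, STING1, TGFBI and ZMAT3.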

How the results depend on the processing

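With library totals, 5427 genes were called higher and 2080 lower, and higher calls made up 72.3% of calls against 46.6% with TMM, 56.3% with upper-quartile factors and 49.6% with DESeq2. At an adjusted p under 0.01 the counts were 1641 and 2050. With 1 H1975 library left out, 1795 to 2373 genes were called higher and 1906 to 2408 lower. The difference between the lines was then called more positive in HCC44 for 1324 to 1531 genes and more negative for 1161 to 1578. In each such fit the lone library of its group was assumed to vary like the other groups.

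The RNA sensing median was -0.74 with upper-quartile factors, -0.61 with library totals, -0.74 with 1 CPM in 2 libraries and -0.73 to -0.82 with a library left out. The interferon-stimulated median was -1.20 with library totals and -1.26 to -1.44 with a library left out. For MHC class I the median was -0.33 with library totals and -0.43 to -0.71 with a library left out, when 11 to 16 members fell. The mitosis median was 0.27 with library totals and -0.11 to 0.26 with a library left out. The AP-1 shares at 5 CPM were 6.22% for genes that fell and 3.59% for genes not called.

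PBRM1, not called in any fit, changed sign to 0.025 with RLE factors and DESeq2, 0.066 with upper-quartile factors, 0.20 with library totals, 0.014 with 1 CPM in 2 libraries, and 0.16 and 0.15 without DMSO replicate 2 and ACBI1 replicate 1 (-0.12 to 0.16 with any library left out). VHL was at 0.0043 with library totals. The cause was not tested. Among 150 genes and 1800 alternative values, 1786 kept direction and side of the threshold, and no called gene lost its call. EGFR (-0.37 in each) was called without the filter, with the block and with H1975 alone, CGAS with upper-quartile factors (0.26) and library totals (0.39), and SMARCA4 with library totals (0.34).

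With the replicate number as a block, 4273 genes were called higher and 4830 lower, 6 mitosis genes rose and 4 fell, and differences between the lines were called for 3481 more positive and 2877 more negative. The labels do not say that a number marks a batch. Deviations of same-numbered libraries correlated at 0.374 over 21307 genes in H1975 and 0.109 in HCC44. In H1975 the reads in no gene were 6.50% (DMSO) and 6.16% (ACBI1) in replicate 1. In replicate 2 they were 4.50 and 4.98%. Whether same-numbered libraries are paired was not tested. Counts without the block, the absence of mitosis calls among them, hold only if the libraries are not paired. Genes with few counts limit what this depth can show.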
